A study of Sus scrofa with 12 samples.

Results

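The vascular basement membrane is described here through 9 genes: COL4A1 and COL4A2 (collagen IV), NID1 and NID2 (nidogens), HSPG2 (perlecan), AGRN (agrin), COL18A1, COL8A1 and PXDN (peroxidasin). They were chosen by name, as the collagen IV network with the proteins that link, coat or crosslink it, and matched to pig Ensembl identifiers. The choice was made with earlier results of these data known. Of the 9 genes, 8 had a row among the 21153 genes counted, and COL4A1 (ENSSSCG00000044700) was not analysed here because that identifier matched no row. Primary arterial endothelial cells (ECs) of 8-month-old pigs were cultured on gelatin under constant laminar flow for 48 h at low aneurysmal (2 dyne/cm2), physiological (30 dyne/cm2) or supra-high aneurysmal (80 dyne/cm2) shear stress. Every one of the 3 donors contributed 4 cultures (1 low, 1 supra-high and 2 physiological), which makes 12 libraries in 4 groups of 3. The 2 cultures at 30 dyne/cm2 form set 1, used here as the control of 2 dyne/cm2, and set 2, used as the control of 80 dyne/cm2. The labels name no genetic change or drug, and all cultures grew in medium with fetal calf serum and heparin. The labels name the aorta as their source and the methods name coronary arteries. The series' design text places supra-high shear stress with its controls in another flow slide, seeded more densely, than low shear stress with its own, while the methods give a single slide, so slide, density and control set cannot be told apart in any contrast between the comparisons.

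A basement membrane is a thin sheet of matrix on which ECs rest. Laminins and collagen IV form separate networks within it, nidogens bind both, and the heparan sulfate proteoglycans perlecan, agrin and collagen XVIII fill and anchor the sheet. Peroxidasin makes the sulfilimine bonds that crosslink collagen IV, and the short-chain collagen VIII, of which COL8A1 encodes one chain, lies in the subendothelial matrix of arteries.

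Library totals ran from 29606854 to 41058902 counted reads. Levels are given as CPM, the reads of a gene scaled to the total of its library, and they are compared between libraries and not between genes, because CPM does not correct for gene length. Each member had at least 4172 reads in every library, so counting error was small beside the spread between donors. The libraries carried the markers of ECs. PECAM1 lay between 1518 and 4030 CPM and CDH5 between 1358 and 2138 CPM, while VWF and CLDN5 matched no row. The summed level of 8 endothelial markers was lowest at 2 dyne/cm2 (4650 to 6189 CPM) and highest at 80 dyne/cm2 (8219 to 8582 CPM), with 7279 to 7720 CPM in set 1 and 6528 to 7349 CPM in set 2. Of the 8, PECAM1, TEK and EMCN fell at 2 dyne/cm2 (-0.71, -2.95 and -1.25 on the log2 scale). KDR and EMCN, as low as 11.5 and 7.57 CPM in single libraries, rose at 80 dyne/cm2 (0.49 and 2.33). CDH5, TIE1, ERG and ENG did neither. ENG was slightly higher at 2 dyne/cm2 (0.15) and ERG slightly lower at 80 dyne/cm2 (-0.03). Of 10 smooth muscle and pericyte markers, DES was at 0 in every library and ACTA2, MYH11, TAGLN, CNN1 and RGS5 stayed under 1 CPM, while MYOCD, LMOD1 and CSPG4 reached 5.07, 5.29 and 5.79 CPM and SMTN lay between 43.0 and 81.9 CPM. The sum of this list was 54.3 to 90.9 CPM over the 12 libraries. CSPG4 fell at 2 and rose at 80 dyne/cm2 (-6.81 and 2.14 on the log2 scale), at levels near the floor. It averaged 0.02 CPM at 2 dyne/cm2 against 2.94 CPM in set 1, so it was tested there only through set 1. At 80 dyne/cm2 it averaged 3.78 CPM against 0.97 CPM in set 2. Of 6 leukocyte markers, PTPRC and CD3E had at most 2 and 1 reads in any library and CD14 had 1.08 to 4.91 CPM, and the list summed to 2.39 to 6.62 CPM. Of 10 fibroblast markers, MFAP5 had at most 1 read and DCN at most 4.52 CPM, but COL3A1 reached 1116 CPM and FBN1 1573 CPM. The summed fibroblast list ran the other way, from 1479 to 2688 CPM in low and 731 to 1017 CPM in supra-high shear stress, with 1130 to 1380 CPM in set 1 and 1018 to 2286 CPM in set 2. The matrix genes FBN1 and COL3A1 weighed most in it (means of 1252 and 769 CPM at 2 dyne/cm2). PDGFRA, PDGFRB, COL1A2 and COL3A1 rose at 2 dyne/cm2 (1.09, 2.41, 0.96 and 1.97), while FBN1 did not pass (0.36) and LUM was slightly lower (-0.11). At 80 dyne/cm2 only COL3A1 fell (-1.90). NID1, COL8A1 and COL18A1 had the same directions as the summed fibroblast list in both comparisons, and the fits of COL4A2 and HSPG2 those of the summed endothelial list. By donor this did not hold at 80 dyne/cm2, where the endothelial sum was higher in all 3 donors. COL4A2 stood there at 0.886, 1.54 and 0.886 of its control in donors 1, 2 and 3, and HSPG2 at 0.972, 1.53 and 1.03. The part of these marker levels in the members' values was not tested, and in bulk RNA fewer cells of a type and less RNA per cell cannot be told apart.

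At low aneurysmal shear stress, transcripts of the nidogen NID2 and of the collagen IV chain COL4A2 fell and those of the crosslinking enzyme PXDN rose. At supra-high aneurysmal shear stress COL8A1 fell, and the other 7 members did not pass the test. Calls were made with edgeR's quasi-likelihood test with a donor term and Benjamini-Hochberg adjustment over all genes tested. "Rose" and "fell" mean an adjusted p under 0.05, and the thresholds of the study add a change of at least 2-fold. At 2 vs. 30 dyne/cm2, 3 of 8 members (37.5%) had an adjusted p under 0.05, where 25.8% of the 11226 genes tested did. The thresholds of the study were passed by 1 member, NID2, and by 9.6% of all genes. At 80 vs. 30 dyne/cm2, 1 of 8 members (12.5%) had an adjusted p under 0.05, against 8.4% of 11187 genes, and the same member, COL8A1, passed the thresholds of the study, against 2.2% of genes. Of all genes tested, 13.4% rose and 12.4% fell at 2 dyne/cm2, and 4.36% rose and 4.04% fell at 80 dyne/cm2. The members' median log2 fold changes were 0.06 (low) and -0.04 (supra-high), beside 0.0025 and -0.0058 for all genes tested, with members on both sides of 0 in either comparison. Without the donor term 2 members (NID2 and PXDN) kept an adjusted p under 0.05 at 2 dyne/cm2, and none did at 80 dyne/cm2, where that fit (edgeR) called no gene at all.

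**Figure D1:**
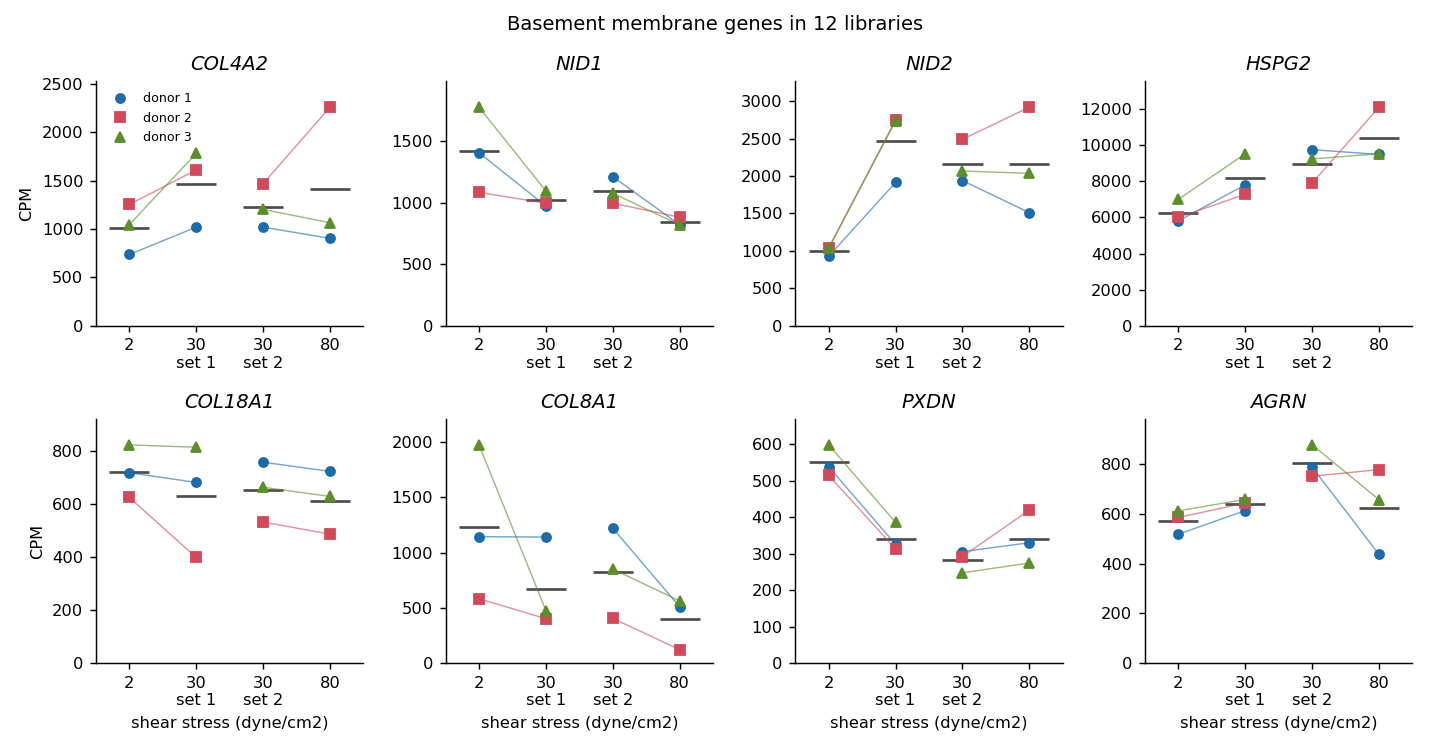
CPM (linear axes from 0) of the 8 measured members in all 12 libraries, by shear stress group. Points are single cultures with a marker for each donor, thin lines join the cultures of a donor that were compared, and horizontal bars are group means; NID2 at 2 dyne/cm2 (928 to 1041 CPM) lies under every other group, and donor 2 at 80 dyne/cm2 has the highest COL4A2, NID2 and HSPG2 values and the lowest COL8A1 value.

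COL4A2 (ENSSSCG00000009545, Sscrofa11.1 chromosome 11, 76996885 to 77161617) encodes the α2 chain, which assembles with the α1 chain into the collagen IV trimer found in most vessels. In RefSeq its span overlaps that of COL4A1 by 525 bases, and whether the counting used strand is not given in the sources used here. The spans of HSPG2, COL8A1 and AGRN overlap another annotated gene or pseudogene by 621, 3624 and 139 bases. In donors 1, 2 and 3 its level was 736, 1254 and 1046 CPM at 2 dyne/cm2, against 1019, 1611 and 1782 CPM in set 1. Within every donor the culture at 2 dyne/cm2 was the lowest of the 4 cultures, although the groups overlapped because donor 1 was low throughout. The log2 fold change was -0.52 (standard error, SE, 0.12; adjusted p = 0.0376, edgeR), a 1.43-fold decrease. This call was lost when any 1 donor was left out (adjusted p = 0.0642 to 0.181), without the donor term (adjusted p = 0.25) and against set 2 (-0.27, adjusted p = 0.153). In supra-high shear stress it was 903, 2260 and 1065 CPM, against 1019, 1469 and 1203 CPM in set 2. Donor 2 was thus 1.54-fold higher while donors 1 and 3 stood at 0.886 of their controls. The log2 fold change was 0.12 (SE 0.19, adjusted p = 0.731), and without donor 2 it was -0.19 (adjusted p = 0.455). The chains of the other collagen IV trimers were scarce. COL4A3 stayed at or under 1.86 CPM, COL4A4 at or under 3.87 CPM, COL4A5 at or under 0.75 CPM and COL4A6 had at most 1 read, and none of these 4 genes passed the filter on low counts.

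At low aneurysmal shear stress NID2 fell, while NID1, the other nidogen, was higher in each donor without passing the test. NID2 (ENSSSCG00000005030, chromosome 1, 181699098 to 181773084) had 928, 1041 and 1034 CPM at 2 dyne/cm2 in donors 1, 2 and 3, and 1914, 2751 and 2735 CPM in set 1. The groups did not overlap, and each donor fell to between 0.378 and 0.485 of its control. The log2 fold change was -1.27 (SE 0.14, adjusted p = 0.00741, edgeR), a 2.41-fold decrease. NID2 passed the thresholds of the study with each donor left out in turn, without the donor term and against set 2. It missed them in 1 of 20 alternatives, a fit that left out the donor term and replicate 1 at 2 dyne/cm2 (adjusted p = 0.0624, edgeR). Its levels at 80 dyne/cm2 were 1511, 2920 and 2036 CPM, against 1939, 2491 and 2068 CPM in set 2. Donor 1 was lower, donor 2 higher and donor 3 almost level, with a log2 fold change of -0.02 (SE 0.17, adjusted p = 0.957). NID1 (ENSSSCG00000026819, chromosome 14, 55239327 to 55346948) had 1406, 1083 and 1775 CPM at 2 dyne/cm2, against 972, 995 and 1094 CPM in set 1. All 3 donors were higher, by 1.45-, 1.09- and 1.62-fold, and the log2 fold change of 0.47 (SE 0.16) did not pass (adjusted p = 0.0928). It passed with DESeq2 (adjusted p = 0.0244) and against both control sets together (adjusted p = 0.0362). Under 80 dyne/cm2 NID1 had 820, 881 and 819 CPM, against 1211, 995 and 1076 CPM in set 2. These groups did not overlap, the only such case among the members at 80 dyne/cm2, where 14.2% of all genes tested had groups without overlap. The log2 fold change was -0.35 (SE 0.13, adjusted p = 0.155). NID1 was highest at 2 dyne/cm2 and lowest at 80 dyne/cm2 among the 4 cultures of each donor.

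Since gene length and library size cancel in a change of ratio, the nidogens were also set against each other within libraries. The ratio of NID2 to NID1 was 2.99-, 2.87- and 4.29-fold lower in donors 1, 2 and 3 at 2 dyne/cm2. In supra-high shear stress it was 1.15-, 1.32- and 1.29-fold higher. In set 2 relative to set 1 it was 1.23-, 1.10- and 1.30-fold lower. Beside this gap between controls, the change at 80 dyne/cm2 was smaller in donor 1, larger in donor 2 and similar in donor 3. The change at 2 dyne/cm2 was larger in each donor. By the series' design text the sets differ in slide and density, so their gap may hold more than the spread between like cultures.

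Of the heparan sulfate proteoglycans, none passed the test in either comparison. HSPG2 (ENSSSCG00000003514, chromosome 6, 79849691 to 79958283) encodes perlecan, a large proteoglycan of the endothelial basement membrane, and took between 0.581% and 1.21% of the counted reads of a library. At 2 dyne/cm2 it had 5811, 6005 and 7008 CPM, against 7811, 7287 and 9533 CPM in set 1. The groups did not overlap and the culture at 2 dyne/cm2 was the lowest of each donor, with a log2 fold change of -0.37 (SE 0.16, adjusted p = 0.141). It passed with DESeq2 and against both control sets together. Under 80 dyne/cm2 HSPG2 had 9495, 12115 and 9539 CPM, against 9765, 7909 and 9246 CPM in set 2. Only donor 2 was clearly higher (1.53-fold), the log2 fold change was 0.24 (SE 0.20, adjusted p = 0.492), and without donor 2 it was -0.01.

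AGRN (ENSSSCG00000022204, chromosome 6, 63366017 to 63398311), the agrin gene, had 519, 586 and 612 CPM at 2 dyne/cm2, just below the 613, 644 and 658 CPM of set 1. Its log2 fold change was -0.15 (SE 0.10, adjusted p = 0.313). It had 437, 778 and 657 CPM at 80 dyne/cm2 and 788, 752 and 877 CPM in set 2, groups that overlapped, with a log2 fold change of -0.37 (SE 0.19, adjusted p = 0.261). AGRN was higher in set 2 than in set 1 in all 3 donors (1.28-, 1.17- and 1.33-fold), and the groups did not overlap. That log2 difference was 0.32 (SE 0.07, adjusted p = 0.139). With the sets exchanged, AGRN passed at 2 dyne/cm2 (-0.46, adjusted p = 0.0286) and its value at 80 dyne/cm2 was -0.06. COL18A1 (ENSSSCG00000038089, chromosome 13, 207907835 to 207984082) encodes collagen XVIII, the parent protein of endostatin. It had 720, 626 and 825 CPM at 2 dyne/cm2 and 683, 400 and 816 CPM in set 1, and 724, 488 and 630 CPM at 80 dyne/cm2 beside 759, 533 and 665 CPM in set 2. Donor 2 was the lowest in each group. Its log2 fold changes were 0.26 (SE 0.15, adjusted p = 0.239) and -0.06 (SE 0.10, adjusted p = 0.741).

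COL8A1 (ENSSSCG00000011973, chromosome 13, 159216138 to 159374718), the collagen VIII chain gene, varied most of the members, 16-fold between the lowest and the highest library. Its levels in supra-high shear stress were 510, 123 and 563 CPM in donors 1, 2 and 3, against 1221, 406 and 852 CPM in set 2. Each donor fell, to 0.418, 0.304 and 0.661 of its control, while the groups overlapped because donor 2 was low in all 4 cultures. Its log2 fold change was -1.16 (SE 0.20, adjusted p = 0.016, edgeR), a 2.23-fold decrease. The call was lost without the donor term (adjusted p = 0.71), without donor 2 (-0.94, adjusted p = 0.051), and against set 1 (-0.87, adjusted p = 0.335), where donor 3 was 1.18-fold higher instead of lower. At 2 dyne/cm2 COL8A1 had 1144, 583 and 1974 CPM, against 1141, 403 and 476 CPM in set 1. Donor 1 was level (1.00-fold), donor 2 was 1.45-fold and donor 3 was 4.15-fold higher, and the log2 fold change of 0.86 (SE 0.43) did not pass (adjusted p = 0.189).

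PXDN (ENSSSCG00000029570, chromosome 3, 132306288 to 132362853) had 538, 514 and 598 CPM at 2 dyne/cm2 and 325, 313 and 386 CPM in set 1. The groups did not overlap, and the donors rose by 1.65-, 1.64- and 1.55-fold, the narrowest range of donor changes among the members that passed at 2 dyne/cm2. Its log2 fold change was 0.71 (SE 0.09, adjusted p = 0.00924, edgeR), under the 2-fold threshold of the study. PXDN kept an adjusted p under 0.05 with each donor left out in turn, without the donor term (adjusted p = 0.0344) and against set 2, and it was lost in the 6 fits that left out both the donor term and 1 library (adjusted p = 0.0531 to 0.11) and in the test against a 1.5-fold change (adjusted p = 0.274). Supra-high shear stress gave 330, 420 and 275 CPM, beside 306, 292 and 248 CPM in set 2. All 3 donors were higher, with a log2 fold change of 0.29 (SE 0.13, adjusted p = 0.191). PXDN in set 2 was lower than in set 1 in all 3 donors, by a log2 difference of -0.29 (SE 0.13, adjusted p = 0.291), the size of its change at 80 dyne/cm2.

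**Figure D2:**
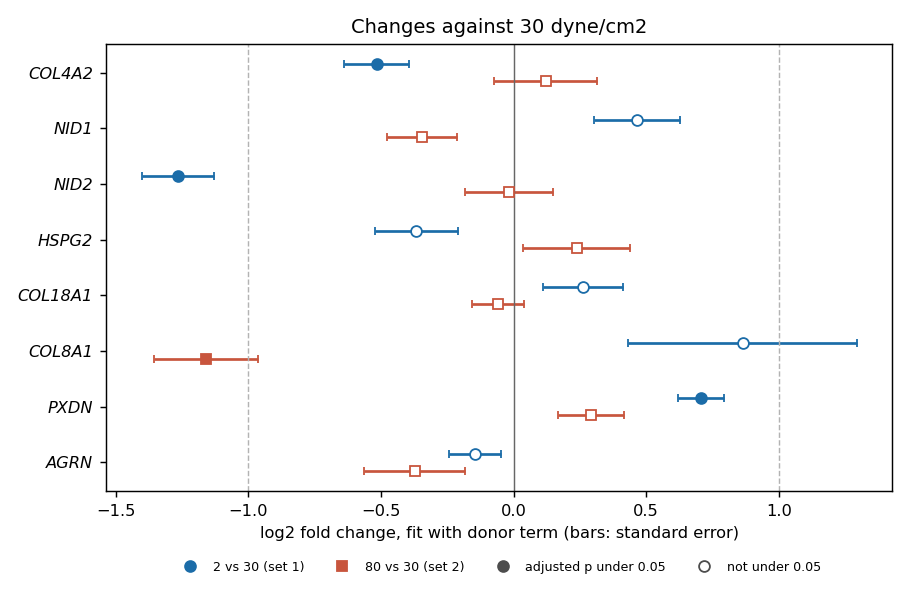
Log2 fold changes (x axis) of the 8 members at 2 vs. 30 dyne/cm2 (circles, control set 1) and at 80 vs. 30 dyne/cm2 (squares, control set 2) in the fit with a donor term. Bars are SEs, filled symbols have an adjusted p under 0.05, and dashed lines mark a 2-fold change; NID2 (-1.27) at 2 dyne/cm2 and COL8A1 (-1.16) at 80 dyne/cm2 lie beyond them.

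In low shear stress all 8 members had the same direction in the 3 donors, 4 higher (NID1, COL18A1, COL8A1 and PXDN) and 4 lower (COL4A2, NID2, HSPG2 and AGRN), where 65.5% of all genes tested did so. The ratios of COL8A1 in donor 1 (1.00) and of COL18A1 in donor 3 (1.01) were close to level, and against set 2 both genes were lower in 1 donor. In supra-high shear stress 4 of 8 did (47.1% of all genes), and between the control sets 3 of 8 (43.8% of all genes). Groups without overlap were found for 4 members at 2 dyne/cm2 (36.5% of all genes), which were NID2, HSPG2, AGRN and PXDN. Between set 2 and set 1 edgeR called no member by adjusted p, and 0.0179% of 11163 genes. With an unadjusted p under 0.05 the count was 1 member, AGRN (19.2% of all genes), which DESeq2 also called after adjustment (4.26% of all genes). The groups of PXDN and AGRN did not overlap between the sets (10.1% of all genes).

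A call in 1 comparison does not show that the responses differ, so the change at 2 dyne/cm2 minus the change at 80 dyne/cm2 was tested over 12 libraries with a donor term. It passed for 3 of 8 members (37.5%), where 37.1% of 11568 genes passed. The log2 difference was 2.00 for COL8A1 (SE 0.49, adjusted p = 0.0118, edgeR), -1.25 for NID2 (SE 0.25, adjusted p = 0.0039) and 0.84 for NID1 (SE 0.25, adjusted p = 0.0247). NID1 thus differed between the responses without a call in either comparison alone. The difference of NID1 was lost without donor 1 (adjusted p = 0.211), without donor 3 (0.136) and without the donor term (0.0561). That of COL8A1 was lost without donor 2 (0.0731) and without the donor term (0.194), and that of NID2 without donor 3 (0.0581). The log2 difference did not pass for COL4A2 (-0.68, SE 0.31), HSPG2 (-0.61, SE 0.26), PXDN (0.41, SE 0.26), COL18A1 (0.32, SE 0.21) or AGRN (0.21, SE 0.24).

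The culture of donor 2 at 80 dyne/cm2 had the highest of 12 values for COL4A2, NID2 and HSPG2 and the lowest for COL8A1. The share of all genes with an extreme value in this culture was not counted. Across the 11187 genes tested at 80 dyne/cm2, 467 differed at least 2-fold from the control in donor 2, against 271 in donor 1 and 202 in donor 3. At 2 dyne/cm2 donor 3 had the most such genes, 1807 of 11226, against 1087 in donor 1 and 805 in donor 2, and it also had the farthest COL8A1 (4.15-fold) and COL4A2 (0.587 of its control) from the controls. Without donor 2 the log2 fold changes at 80 dyne/cm2 were -0.20 for NID2, -0.49 for NID1, -0.65 for AGRN and 0.12 for PXDN, and no member had an adjusted p under 0.05.

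Donor and group took very different shares of the variation. The 4 groups include both control sets, so the group share also holds the difference between the sets at the same shear stress. Over the 12 libraries the shear stress group held 83.1% of the variance in log2 CPM for PXDN, 80.9% for NID2, 76.7% for HSPG2 and 72.0% for NID1. For COL18A1 and COL4A2 it held 11.3% and 20.2%, and the donor 67.4% and 59.5%. COL8A1 was divided between donor (45.9%) and group (39.9%). The mean over 11568 genes was 34.5% for the donor and 42.1% for the group. These shares describe the 12 libraries and were not tested.

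**Figure D3:**
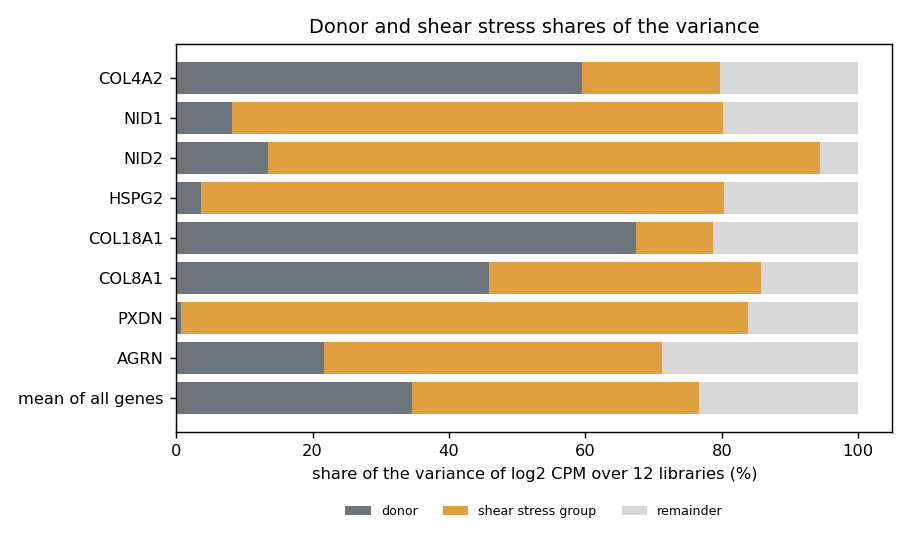
Share (%) of the variance of log2 CPM over 12 libraries that lay between donors, between the 4 shear stress groups, or in the remainder, for each member and as the mean of 11568 genes. The group share was 83.1% for PXDN and 11.3% for COL18A1.

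The genes that act with these proteins were followed in 6 further lists, of laminin chains, other basement membrane components, receptors, enzymes of collagen folding and export, enzymes of heparan sulfate assembly, and turnover. With the donor term, 14 of 79 tested genes rose and 20 fell at 2 dyne/cm2 (43% of them, against 25.8% of all genes), and 16 of 78 rose and 8 fell at 80 dyne/cm2 (30.8%, against 8.4%). The lists were chosen with earlier results of these data known, so these shares are not independent of the data. Without the donor term 4 rose and 16 fell at 2 dyne/cm2 (25.3%, against 1244 of all 11226 genes). None passed at 80 dyne/cm2 in that fit, where no gene of any kind did. Against set 1 none passed at 80 dyne/cm2 either, where 0.225% of all genes did. Leaving out 1 donor gave 24 to 31 genes in low shear stress, where 12.7% to 16.6% of all genes passed. In supra-high shear stress it gave 13, 18 and 34 genes without donors 3, 2 and 1, where 1.68%, 3.15% and 18.6% of all genes passed.

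Of 8 tested laminin chains, which form the polymer that nidogens tie to collagen IV, 1 rose and 3 fell at 2 dyne/cm2 (median log2 fold change -0.23), and 2 of 7 rose at 80 dyne/cm2 (median 0.20). LAMC1, the γ1 chain that nidogens bind, fell from 2306 ± 183 to 1453 ± 80.3 CPM (SD, n = 3) at 2 dyne/cm2, or -0.65 on the log2 scale (SE 0.12, adjusted p = 0.0198, edgeR). LAMA5, the α5 chain of arterial endothelium, fell in low and rose in supra-high shear stress (-1.43 and 0.83 on the log2 scale). The chain that rose at 2 dyne/cm2 was LAMA3 (3.38), from 0.75 ± 0.60 CPM in set 1 to 8.24 ± 8.15 CPM. It passed the filter on low counts only with the help of libraries at 2 dyne/cm2, where it was high. Its call was lost without the donor term (adjusted p = 0.112, edgeR). Among 12 tested other components, 6 rose and 1 fell at 2 dyne/cm2 (median 0.22), and 1 rose and 4 fell at 80 dyne/cm2 (median -0.41). The calcium-binding matrix protein SMOC1 (2.86 and -1.32), the fibulin FBLN1 (1.59 and -1.48) and hemicentin HMCN1 (2.12 and -1.07) rose in low and fell in supra-high shear stress. TINAGL1, a laminin-binding protein, did the reverse (-3.69 and 2.27). FBLN2 fell at 80 dyne/cm2 (-1.29).

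Of 13 tested receptors, 2 rose and 5 fell at 2 dyne/cm2 (median -0.43), and 4 rose and 1 fell at 80 dyne/cm2 (median 0.24). ITGA1, the collagen IV-binding integrin subunit α1, rose at 2 dyne/cm2 (2.03, adjusted p = 0.0277, edgeR) and fell at 80 dyne/cm2 (-0.62, adjusted p = 0.018). Its fall holds against set 2 only. ITGA1 averaged 10 CPM in set 1, 16.9 CPM in set 2 and 10.9 CPM at 80 dyne/cm2, with a log2 gap of 0.73 from set 1 to set 2. The laminin-binding subunits ITGA6 (-1.94 and 0.54) and ITGA3 (-0.90 and 0.71) and the subunit ITGB3 (-3.47 and 1.22) fell at 2 and rose at 80 dyne/cm2, each against its own control set. Set 2 lay below set 1 in these genes too (log2 gap of -0.40, -0.33 and -0.58). ITGA6 averaged 697 CPM in set 1, 524 CPM in set 2 and 726 CPM at 80 dyne/cm2. The syndecan SDC1 fell at 2 dyne/cm2 (-1.53), and the collagen receptor DDR2 rose at 80 dyne/cm2 (0.73).

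Of 15 tested genes of collagen folding and export, 4 rose and none fell at 2 dyne/cm2 (26.7%, close to the 25.8% of all genes, median 0.10). They were the prolyl and lysyl hydroxylase genes P4HA1 (0.63), PLOD2 (1.02), P3H2 (1.29) and P3H3 (0.52). Only PLOD2 kept its call without the donor term (adjusted p = 0.037). In supra-high shear stress 1 gene rose, PLOD3 (0.62), which encodes the enzyme that hydroxylates and glycosylates lysines of collagen IV. Among 13 tested genes that build heparan sulfate, the side chains of perlecan and agrin, 1 rose and 4 fell at 2 dyne/cm2 (median -0.20). The polymerase EXT1 fell (-0.89, adjusted p = 0.0166, edgeR), as did the sulfotransferase HS3ST1 (-3.80) and the chain-initiating enzyme XYLT1 (-1.34), while HS6ST1 rose (0.92). At 2 dyne/cm2 HS3ST1 averaged 0.63 CPM, so it passed the filter on low counts in that comparison only through set 1. HS3ST1 and XYLT1 rose at 80 dyne/cm2 (1.45 and 0.60), the 2 of 13 genes that passed there. The control sets differed in both genes (log2 gap from set 1 to set 2 of -0.68 and -1.08). XYLT1 averaged 14.8 CPM in set 1, 7.38 CPM in set 2 and 10.7 CPM at 80 dyne/cm2, which is under set 1. HS3ST1 averaged 10.83, 7.01 and 15.85 CPM.

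Of 18 tested turnover genes none rose and 7 fell at 2 dyne/cm2 (median -0.35), whereas 6 rose and 3 fell at 80 dyne/cm2 (median 0.33). Against set 1 none of them rose or fell at 80 dyne/cm2, where 0.225% of all genes did, and the median was -0.08. The proteases ADAMTS1 (-5.75 and 2.81) and ADAMTS4 (-3.18 in low shear stress) and the plasminogen activator PLAU (-3.19 and 1.18) fell at 2 and rose at 80 dyne/cm2, each against its own control set. The control sets differed in these genes. ADAMTS1 averaged 133 CPM in set 1, 25.6 CPM in set 2 and 205 CPM in supra-high shear stress, ADAMTS4 averaged 568, 210 and 612 CPM, and PLAU 617, 286 and 667 CPM, so that the log2 gap from set 1 to set 2 (-2.52, -1.55 and -1.07, adjusted p = 0.139, 0.0563 and 0.0563, edgeR) was close in size to each rise. The metalloproteinase inhibitor TIMP1 fell at 2 dyne/cm2 (-1.80) and rose at 80 dyne/cm2 (0.93), with 213 CPM in set 1 and 128 CPM in set 2. The heparan sulfate sulfatase SULF1, at under 10 CPM on average, fell at 80 dyne/cm2 (-1.82). It averaged 3.74 CPM in set 1, 8.98 CPM in set 2 and 2.19 CPM at 80 dyne/cm2, with a log2 gap of 1.02 from set 1 to set 2.

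**Figure D4:**
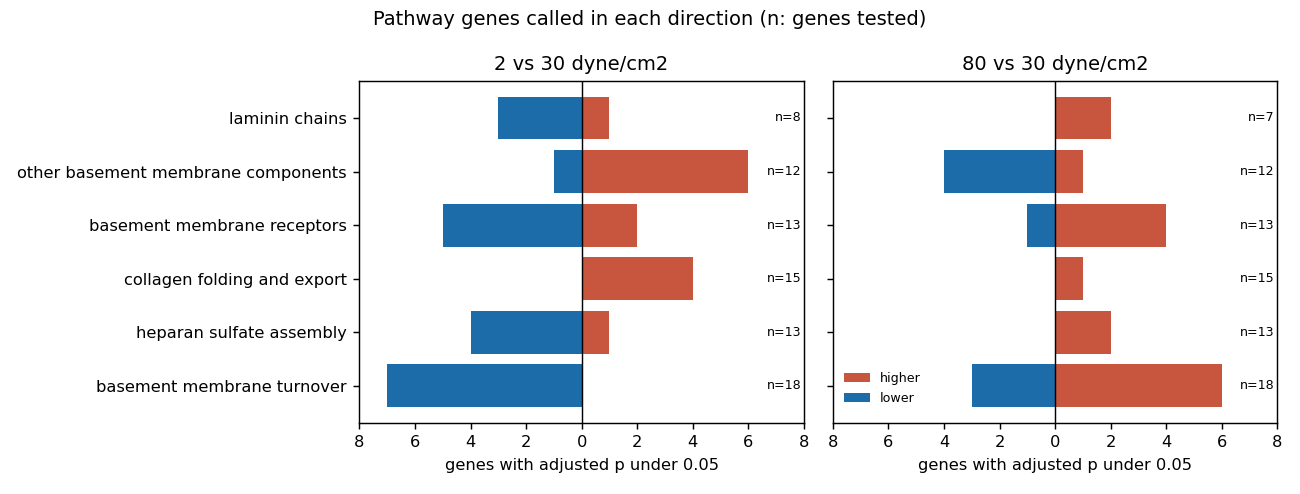
Number of genes (x axis) with an adjusted p under 0.05 that were higher (right) or lower (left) than in the control at 2 vs. 30 dyne/cm2 and at 80 vs. 30 dyne/cm2, in 6 lists, with the number tested as n. In the turnover list 7 of 18 genes were lower at 2 dyne/cm2, and 6 were higher and 3 lower at 80 dyne/cm2.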

How the data were processed

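RNA of 12 cultures was sequenced as single-end reads of 100 nt. Per the labels, the authors mapped the reads with STAR to Sscrofa11.1, discarded reads with more than one location and counted reads on merged exons with featureCounts (1.4.6), and the deposited table holds raw counts. Donors were matched by replicate number, which the source labels share. After removal of group means, correlation over 11568 genes was 0.63 to 0.87 in the 18 same-donor pairs and -0.55 to -0.18 in the 36 others. Which physiological set belongs to which comparison is not labelled, so the order of the culture numbers was followed (1 with 2, 3 with 4) and the sets were exchanged as an alternative.

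Here genes that reached 1 CPM in 3 or more of the 6 compared libraries were tested in R 4.3.3 with edgeR 4.0.16 (TMM, quasi-likelihood test, donor term, which the study's comparison within donors calls for). The study filtered at 1 RPKM, and no gene lengths were used here. The standard error is the log2 fold change divided by the square root of F. Donor ratios and variance shares used log2 CPM with a pseudocount of 0.5. With 3 donors the p-values rest on few residual degrees of freedom. Positions are those of RefSeq on Sscrofa11.1, and symbols were matched through a table of Ensembl identifiers that gave 14572 of 21153 genes a symbol. Of 149 listed symbols 12 matched no row. Members and lists were chosen with earlier results of these data known, and no set test was made. Up to 4 genes per list and comparison were named, those with the largest change among genes with an adjusted p under 0.05, with all members, the markers and the 5 genes most like COL4A2 (COL4A1 had been meant to join it). A gene that this rule names is not reported here. The procedure was also run on counts simulated from a model of the same kind, with donor effects and no gap between control sets. That run does not bear on how calls depend on the control set or donor term. Alternatives were DESeq2 1.42.0, other normalization, filters, dispersion, thresholds and controls, no donor term, and each donor or library left out.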

Additional observations from a re-analysis of the deposited data

Results flagged for a closer look

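The change at 2 dyne/cm2 differed from the change at 80 dyne/cm2 for 3 members (test of the difference over 12 libraries, edgeR quasi-likelihood test with a donor term). That is 37.5% of the 8 members, where 37.1% of all genes passed the same test. The log2 difference was 2.00 for COL8A1, -1.25 for NID2 and 0.84 for NID1. In all 3 donors COL8A1 and NID1 were higher or level at 2 dyne/cm2 and lower at 80 dyne/cm2, while NID2 was lower in 3 of 3 donors at 2 dyne/cm2 and in 2 of 3 at 80 dyne/cm2. For each of the 3 genes at least 1 fit without a donor lost the call.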

How the results depend on the processing

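Over 20 alternatives, NID2 at 2 dyne/cm2 kept its direction (log2 fold change -1.44 to -1.08) and lost its call in 1, PXDN (0.60 to 1.00) in 7 and COL4A2 (-0.73 to -0.27) in 13, and COL8A1 at 80 dyne/cm2 (-1.47 to -0.62) in 12. Of 488 single values under an alternative, 424 kept their direction and side of the threshold, 39 lost and 8 gained a call, and 17 changed direction, the cause of which was not tested. The alternative of adjusted p alone, counted among these, reused the main fit, so its single values were the same by construction.

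Main counts at 2 dyne/cm2 were 1 member past the study's thresholds and 3 by adjusted p alone. DESeq2 and both sets as control gave 5 by adjusted p. No replicate block with 1 library left out gave 0 to 1 by either count, with 0 only without replicate 1 at 2 dyne/cm2. At 80 dyne/cm2 the count of 1 became 0 without the replicate block (also with any 1 library left out), with dispersion from 12 libraries, in the test against a 1.5-fold change, against set 1, against both sets and without replicate 2, and 2 by adjusted p (COL8A1 and PXDN) without replicate 1. Between the sets DESeq2 called 1 member (AGRN) against 0. The responses differed for 1 member instead of 3 without the replicate block (NID2) and without replicate 3 (COL8A1). No other count of members moved by over 1.5 times. Genes of any kind called at 80 dyne/cm2 numbered 246, and 0 without the block, 23 against set 1, 84 against both sets, 83 in the 1.5-fold test, 125 with dispersion from 12 libraries, and 132, 136 and 286 without replicates 2, 3 and 1. At 2 dyne/cm2 they numbered 1078, and 635 without the block, 676 in the 1.5-fold test, 867 against set 2 and 209 to 605 without the block and 1 library.

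Values that changed direction at 80 dyne/cm2 with a replicate left out ranged, for COL4A2, from -0.19 (without replicate 2) to 0.30, for NID2 from -0.205 to 0.18 (without replicate 1) and for HSPG2 from -0.0117 (without replicate 2) to 0.41. Against set 1 COL4A2 was -0.13 and COL18A1 0.017. Without the replicate block NID2 was 0.043, and 0.27, 0.0806, 0.14 and 0.0053 when replicates 1 or 3 at 80 dyne/cm2 or 2 or 3 of set 2 were also left out. In such fits COL4A2 was -0.31 and COL18A1 0.0499 without replicate 2 at 80 dyne/cm2, COL18A1 was 0.0722 without replicate 1 of set 2, and at 2 dyne/cm2 COL18A1 was -0.0443 without replicate 2 of set 1. Between the sets NID1 ranged from -0.0406 (without replicate 1) to 0.1574 and COL18A1 from -0.0922 (without replicate 2) to 0.2831, and the difference of responses of AGRN from -0.0029 (without replicate 1) to 0.4902.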

Other observations

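The members were also compared by the shape of their pattern over the 12 libraries, after subtraction of each donor's mean of log2 CPM, as a description over libraries that share donors. COL4A2 lay closest to NID2 (Pearson's r = 0.784) and HSPG2 (0.752) and ran against COL8A1 (-0.659). All of these genes had an extreme value in the culture of donor 2 at 80 dyne/cm2, and no correlation was computed without it. NID1 lay closest to COL8A1 (0.746) and PXDN (0.701) and ran against HSPG2 (-0.626) and NID2 (-0.603). Among 10138 other genes with a symbol, the patterns most like that of COL4A2 were those of MAP1S (0.941), CDC42BPG (0.899), SEMA4C (0.897), RILPL1 (0.897) and LAMB1 (0.877), which encodes the β1 laminin chain.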
